A study of Mus musculus with 5 samples.

Results

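The leukocyte integrins and their ligand Icam1 were examined in macrophages recovered from tumour-bearing Matrigel plugs. The 10 genes are Itgam, Itgax, Itgal, Itgb2, Itga4, Itgb1, Itgb7, Itga5, Itgav and Icam1, out of 17074 named genes with a tested probe set. Every probe set whose platform annotation names 1 of them was taken, which gave 27 probe sets, all of them tested and none shared with another gene symbol. Where a gene had several, its value is that of the probe set with the highest mean log2 signal, and the others are described beside it.

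The cells were CD11b+ macrophages sorted on day 8 from subcutaneous plugs in Balb/c SCID mice aged 7 to 12 weeks. Mice of both groups carried a transgenic T-cell receptor specific for the idiotype of MOPC315, a mouse myeloma line. SCID mice produce almost no B cells, and almost no T cells other than those with the transgenic receptor. Tumoricidal macrophages (3 arrays, biological replicates) came from plugs with MOPC315 cells, and control macrophages (2 arrays) from plugs with an antigen-loss form of the line. The labels do not say whether a replicate was 1 mouse or a pool of mice. RNA was hybridised to Affymetrix arrays, and signals are linear intensities after scaling of each array to a common median. With so few arrays, precision is limited throughout.

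Integrins are surface receptors made of an alpha and a beta chain, and the pair decides what the cell can hold on to. The beta-2 chain Itgb2 (CD18) pairs with Itgal to form LFA-1, with Itgam to form Mac-1 and with Itgax to form the receptor known as CD11c/CD18. These receptors bind Icam1 and, in the case of the Itgam and Itgax pairs, also complement fragments and fibrinogen. Itga4 pairs with Itgb1 or Itgb7 and binds Vcam1, fibronectin or the gut addressin Madcam1, while Itga5 with Itgb1 and Itgav with several beta chains bind matrix proteins. Itgam encodes CD11b, the protein on which these cells were sorted, so that its RNA is a check of the sort.

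Signals of known cell type markers bear on all values below, because a sorted population can hold other CD11b+ cells and some cells that escape the gate. In such bulk RNA, fewer cells of a type and less RNA per cell cannot be told apart. The 8 macrophage markers had a summed signal between 20798 and 31011 on the tumoricidal arrays and between 18112 and 26701 on the control arrays. Adgre1, the F4/80 antigen, had signals of 1749, 1334 and 1879 in tumoricidal replicates 1 to 3, against 793 and 1699 in control replicates 1 and 2. Csf1r, the receptor for the macrophage growth factor CSF1, had 6685, 5913 and 6808 in tumoricidal and 5186 and 5290 in control replicates. The control arrays thus differed from each other in Adgre1 more than the tumoricidal arrays did. The arrays also fell into 2 sets by their spike-in control signals, here called spike-in sets A and B (mean BioC signal 609 to 683 in A, against 166 and 173 in B): tumoricidal replicates 1 and 2 with control replicate 1 formed set A, and tumoricidal replicate 3 with control replicate 2 formed set B. The labels name no batch, and values are therefore also given within each set, of which set B holds 1 array per group. Across all tested probe sets, limma (Benjamini-Hochberg adjusted p under 0.05) called 0.0341% higher and 0.0171% lower in tumoricidal macrophages, while 4.92% were higher and 3.07% lower at an unadjusted p under 0.05. That balance depends on the scaling: as scaled here 2021 probe sets were higher and 1259 lower, quantile-normalized values gave 1723 and 1691, and values at their deposited scale gave 1172 and 2500. Groups did not overlap in 13.3% of probe sets upwards and in 7.60% downwards, and over named genes in 17.0% upwards and 6.51% downwards.

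Itgax, the CD11c chain, was the member with the largest difference. Its probe set 1419128_at had signals of 711, 578 and 784 in tumoricidal replicates 1 to 3, against 189 and 179.9 in control replicates 1 and 2. The lowest tumoricidal array was 3.05 times the highest control array, and the control arrays differed from each other by little. The mean was 691 ± 105 (SD, n = 3) in tumoricidal macrophages and 185 ± 6.77 (SD, n = 2) in control macrophages, a log2 difference of 1.89 (95% interval 1.27 to 2.52, limma unadjusted p = 0.000367). That is a 3.71-fold higher signal, but over all 41053 tested probe sets the adjusted p from limma was 0.127, so Itgax did not pass. Within spike-in set A the difference was 1.76 and within set B it was 2.12. The call depended on how dim probe sets were treated. The adjusted p from limma was 0.00143 with a pseudocount of 16 in place of the floor, 0.0155 when only probe sets above the median were tested, and 0.0354 with an intensity trend in the variance. It was 0.218 with a floor at the 10th percentile and 0.0991 with no filter on dim probe sets, so that Itgax did not pass there. With the spike-in set as a block it was 0.218.

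Itgam did not separate the groups. Its probe set 1422046_at had signals of 865, 466 and 1135 in tumoricidal replicates 1 to 3, against 417 and 931 in control replicates 1 and 2. Each group held both high and low arrays, and control replicate 2 stood 2.23 times above control replicate 1. The log2 difference was 0.31 (95% interval -0.99 to 1.60, limma adjusted p = 0.892), an interval that leaves room for a difference in either direction. It was 0.60 within spike-in set A and 0.29 within set B. Leaving out control replicate 1 turned the sign to -0.27, while leaving out control replicate 2 gave 0.88. Itgam RNA was thus present on all 5 arrays, as a sort on CD11b calls for, but its level varied within groups by more than it differed between them.

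**Figure D1:**
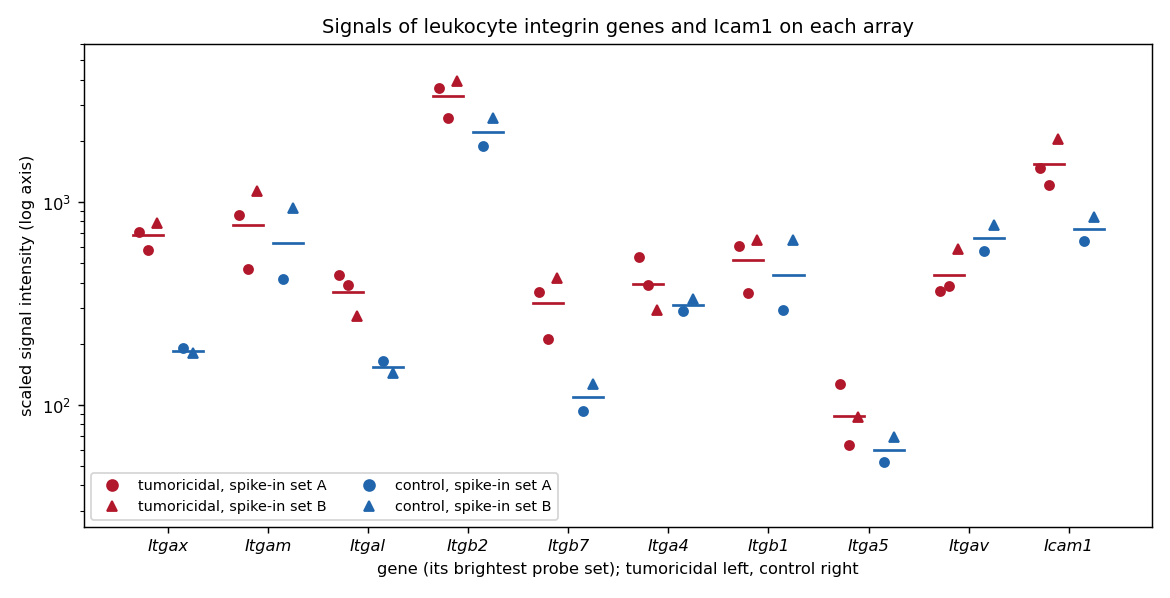
Scaled signal intensity (log axis) of the brightest probe set of each gene on every array, tumoricidal macrophages left (red) and control macrophages right (blue); circles and triangles are spike-in sets A and B, and bars are geometric means. The 3 tumoricidal points of Itgax, at 578 to 784, lie above both control points at 189 and 179.9, whereas those of Itgam interleave.

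The contrast between Itgax and Itgam was then taken within each array, where a constant scaling factor per array cancels. Signals of different probe sets have no common unit, so that only the change of this difference between groups carries meaning. Log2 Itgax minus log2 Itgam was -0.28, 0.31 and -0.53 in tumoricidal replicates 1 to 3, against -1.14 and -2.37 in control replicates 1 and 2. All tumoricidal arrays lay above both control arrays. The group means differed by 1.59, or 3.005-fold (exact two-sided permutation p = 0.2). This p doubles the smaller tail, and 0.2 is the smallest value that rule gives with 3 against 2 arrays. The size rests on the control arrays: it was 2.20 without control replicate 1 and 0.97 without control replicate 2. It was 1.15 within spike-in set A and 1.84 within set B. The difference between the control arrays came almost wholly from Itgam, which was 2.23 times as high in control replicate 2 as in control replicate 1, while Itgax was 0.949 times as high.

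**Figure D2:**
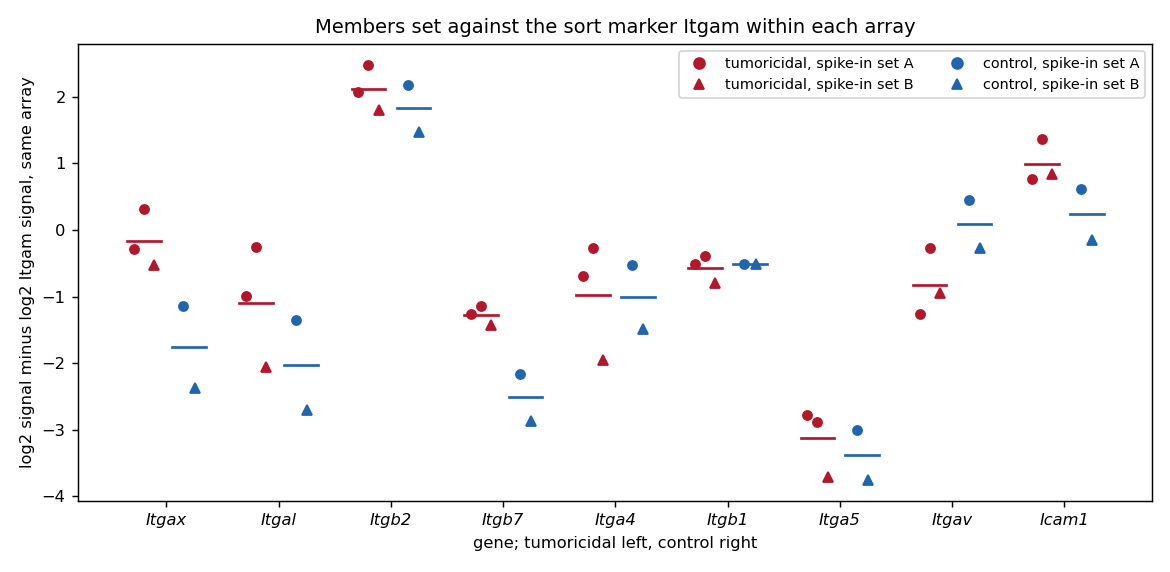
Log2 signal of each gene minus the log2 signal of Itgam on the same array, tumoricidal left (red), control right (blue), bars at the group means; the height of different genes on the axis has no meaning. The tumoricidal points lie above both control points for Itgax, Itgb7 and Icam1 and below them for Itgav, narrowly so in tumoricidal replicate 2.

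The genes of Itgam and Itgax are direct neighbours in the RefSeq annotation of GRCm38.p6, with 0 protein-coding genes between them, and Itgad follows with 0 protein-coding genes in between. Their promoter windows, from RefSeq, are shown because the log2 difference between groups was 1.89 for Itgax and 0.31 for its neighbour Itgam. Each runs from 250 bases before to 50 bases after an annotated start on the + strand, at chr7:128062390-128062689 for Itgam and chr7:128129300-128129599 for Itgax (GRCm38.p6). Capitals mark GAGGAA or its reverse complement TTCCTC, the core of sites bound by the myeloid factor PU.1.
Itgax: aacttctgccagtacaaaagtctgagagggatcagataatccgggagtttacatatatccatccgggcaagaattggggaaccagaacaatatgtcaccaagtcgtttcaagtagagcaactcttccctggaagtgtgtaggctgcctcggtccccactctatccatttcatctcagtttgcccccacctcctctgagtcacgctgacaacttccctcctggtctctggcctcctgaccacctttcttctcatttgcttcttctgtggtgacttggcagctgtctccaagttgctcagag
Itgam: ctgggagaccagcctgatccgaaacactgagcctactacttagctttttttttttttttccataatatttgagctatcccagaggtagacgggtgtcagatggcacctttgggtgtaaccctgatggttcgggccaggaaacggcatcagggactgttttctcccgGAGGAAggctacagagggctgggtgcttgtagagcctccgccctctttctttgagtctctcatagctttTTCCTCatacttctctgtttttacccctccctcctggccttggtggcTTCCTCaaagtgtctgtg
The Itgam window held 3 matches and the Itgax window 0, and 28.3% of the 32851 promoter windows in the RefSeq set hold at least 1. A match is no proof of a binding site, and a window without these letters says nothing about the factor.

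Itgal, the alpha chain of LFA-1, was higher in tumoricidal arrays on both of its probe sets. The brighter one, 1435560_at, had signals of 434, 390 and 274 in tumoricidal replicates 1 to 3, against 164 and 142.9 in control replicates 1 and 2. The other, 1425367_at, had 131, 120 and 115 in tumoricidal and 28.8 and 46.2 in control replicates. On neither did the groups overlap. The log2 differences were 1.23 (SE 0.29, limma adjusted p = 0.353) and 1.74 (SE 0.29, limma adjusted p = 0.191), so that neither passed. Within spike-in sets A and B the brighter probe set differed by 1.32 and 0.94.

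LFA-1 is carried by all leukocytes, and the groups were apart for natural killer cell markers as they were for Itgal. All 5 natural killer markers with a value were apart upwards, beside 17.0% of named genes, but 0 of 5 passed the adjusted limma test. Their summed signal lay between 708 and 2829 in tumoricidal and between 159.8 and 477 in control arrays. Ncr1, the activating receptor NKp46, had 81.1, 38.8 and 24.1 in tumoricidal and 9.72 and 7.60 in control replicates. The 5 T-cell markers summed to between 85.3 and 1152 in tumoricidal and between 79.5 and 167 in control arrays, and the high value was that of tumoricidal replicate 2 alone. Cd3e had 8.75, 196.4 and 9.58 in tumoricidal and 8.44 and 2.6 in control replicates, and Cd3g had 31.5, 185 and 25.9 against 14.3 and 8.5. These were the only 2 of the 5 T-cell markers apart upwards, beside 17.0% of named genes, and 0 of 5 passed the adjusted limma test. Cd3d, Cd5 and Cd28 overlapped, and Cd28 had a log2 difference of -0.09. Over arrays left out 1 at a time, the Itgal log2 difference lay between 1.09 and 1.42. The part of natural killer and T cells in the Itgal difference was not tested.

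Dendritic cells carry Itgax and little F4/80. The log2 differences of their markers ran from -0.76 for Cd209a to 0.76 for Xcr1. Of 6 dendritic cell markers with a value, 0 had non-overlapping groups, beside 17.0% of named genes upwards and 6.51% downwards. Their summed signal lay between 437 and 1098 in tumoricidal and between 730 and 854 in control arrays. Flt3, the growth factor receptor of dendritic cells, had 20.0, 26.0 and 23.5 in tumoricidal and 32.0 and 19.5 in control replicates. Zbtb46, a transcription factor of classical dendritic cells, had 17.4, 12.99 and 23.4 in tumoricidal and 23.9 and 14.2 in control replicates. The part of dendritic, natural killer or granulocytic cells in the Itgax difference was not tested.

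Itgb2, the shared beta-2 chain, gave signals of 3634, 2595 and 3949 in tumoricidal replicates 1 to 3, against 1885 and 2589.9 in control replicates 1 and 2. The groups lay next to each other without overlap, as the lowest tumoricidal array was 1.002 times the highest control array. The log2 difference was 0.60 (95% interval -0.16 to 1.36, limma adjusted p = 0.751), with 0.70 within spike-in set A and 0.61 within set B. It did not pass, and it depended on scaling, with 0.24 after quantile normalization. Neutrophils are rich in Mac-1, and 4 of the 5 neutrophil markers with a value had higher, non-overlapping signals in tumoricidal arrays (17.0% of named genes did), 0 of 5 passing the adjusted limma test, with sums between 8982 and 10068 against 3823 and 6418 in the control arrays. Among them S100a8, a calcium-binding alarmin subunit, had 4788, 3919 and 4627 in tumoricidal and 1635 and 3004 in control replicates. The part of neutrophils in the Itgb2 values was not tested.

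Icam1, the ligand of the beta-2 integrins, had a higher signal on every tumoricidal array than on either control array. Its probe set 1424067_at had 1467, 1204 and 2039 in tumoricidal replicates 1 to 3, against 639 and 842 in control replicates 1 and 2. Means were 1570 ± 427 (SD, n = 3) in tumoricidal and 740.5 ± 144 (SD, n = 2) in control macrophages. The log2 difference was 1.06 (95% interval 0.27 to 1.86, limma unadjusted p = 0.0174), a 2.09-fold higher signal, and the adjusted p over all probe sets was 0.480 with limma, so Icam1 did not pass. It was 1.06 within spike-in set A and 1.28 within set B. Set against Itgam on the same array, the group means differed by 0.76 (exact two-sided permutation p = 0.2).

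The promoter window of Icam1 is shown because Icam1 is a textbook target of NF-kB. It spans chr9:21015690-21015989 of GRCm38.p6 on the + strand, from 250 bases before to 50 bases after the annotated start, and comes from RefSeq. Capitals mark GGAAATTCC, the NF-kB letters searched.
Icam1: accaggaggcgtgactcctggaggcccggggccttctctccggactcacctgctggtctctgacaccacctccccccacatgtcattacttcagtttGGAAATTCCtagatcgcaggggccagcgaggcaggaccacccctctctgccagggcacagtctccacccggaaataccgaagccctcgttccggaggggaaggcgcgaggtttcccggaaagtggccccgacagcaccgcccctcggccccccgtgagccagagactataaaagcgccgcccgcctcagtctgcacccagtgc
The match begins 153 bases before the start, and 0.317% of all 32851 windows of the same length hold GGAAATTCC on either strand. GAAANNGAA, a shortened form of the interferon-stimulated response element, is held by 8.56% of windows and matched in that of Itgav. Of the 8 members with a window, Icam1 was the only 1 with GGAAATTCC. The motifs were chosen with the sequences in view, and the RefSeq set used here gave no window for Itgal and Itgb2. The matches are descriptions of letters and not evidence of binding in these cells.

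Itgb7, which pairs with Itga4 or Itgae, had the second largest difference. Its probe set 1418741_at had signals of 361, 211 and 420.2 in tumoricidal replicates 1 to 3, against 93.6 and 127 in control replicates 1 and 2. All tumoricidal arrays were at least 1.66 times the highest control array. The log2 difference was 1.54 (95% interval 0.61 to 2.48, limma adjusted p = 0.365), with 1.56 within spike-in set A and 1.73 within set B. With a pseudocount of 16 in place of the floor, Itgb7 and Itgal passed, at limma adjusted p of 0.0321 and 0.0489.

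The alpha chain partners of Itgb7, Itga4 and Itgae, both had positive differences over the 5 arrays, and neither passed. Itga4 had signals of 537, 387 and 292 in tumoricidal replicates 1 to 3, against 291 and 332 in control replicates 1 and 2, on its brightest probe set 1436037_at. These overlap, and the log2 difference was 0.34 (95% interval -0.47 to 1.15, limma adjusted p = 0.853). Of the 5 Itga4 probe sets 4 had a positive difference, up to 0.72, and the dimmest, 1427615_at, had -0.43. Within spike-in set B the Itga4 difference turned to -0.19, against 0.65 within set A. Itgae, the CD103 chain, had 42.9, 51.7 and 21.2 in tumoricidal and 19.7 and 12.6 in control replicates, a log2 difference of 1.196 (limma adjusted p = 0.600). The groups did not overlap for Itgae. Whether Itgae and Itga4 differed from each other was not tested.

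Mast cell progenitors use Itga4 with Itgb7 to enter tissue, and markers of granulocytes of this kind gave dim signals. The 6 markers of eosinophils, mast cells and basophils summed to between 137 and 158 in tumoricidal and between 11.2 and 49.6 in control arrays, with 3 of 6 apart upwards (17.0% of named genes were), 3 overlapping and 0 past the adjusted limma test. The eosinophil lectin Siglecf had 38.5, 37.0 and 38.5 in tumoricidal and 10.5 and 5.8 in control replicates, and the basophil protease Mcpt8 had 76.1, 49.4 and 58.3 against 7.49 and 0.3. Fcer1a and Ms4a2, chains of the IgE receptor, were at the floor of 4.79 in both control arrays, and Fcer1a was at it in tumoricidal replicates 1 and 2 as well. Plasma cells, the lineage of the injected myeloma, also carry Itga4, and 5 of their 6 markers were lower in tumoricidal arrays without overlap (6.51% of named genes were), 0 of 6 passing the adjusted limma test. They summed to between 346 and 1314 in tumoricidal and between 3075 and 3439 in control arrays. The B-lineage coactivator Pou2af1 had 50.5, 45.3 and 69.5 in tumoricidal and 483 and 544 in control replicates, and Jchain, the joining chain of secreted antibodies, had 387, 78.7 and 561 against 1623 and 1985. The part of these cells in the Itgb7 and Itga4 values was not tested.

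Itgb1, the beta-1 chain, followed Itgam across arrays and not the groups. Its brightest probe set 1452545_a_at had signals of 607, 353 and 650.5 in tumoricidal replicates 1 to 3, against 292 and 651 in control replicates 1 and 2. Control replicate 2 stood 2.23 times above control replicate 1, the same ratio as for Itgam. Log2 Itgb1 minus log2 Itgam was -0.51, -0.40 and -0.80 in tumoricidal and -0.52 and -0.52 in control replicates. The log2 difference between groups was 0.25 (95% interval -0.90 to 1.40, limma adjusted p = 0.902), and the 6 probe sets of the gene ranged from -0.11 to 0.25. Of these, 1426919_at, 1426920_x_at and 1438119_at were at the floor on 2, 2 and 4 arrays, which limits what their small differences show. Leaving out control replicate 1 gave -0.33 and leaving out control replicate 2 gave 0.83, and the values within spike-in sets A and B were 0.67 and -0.00121.

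The matrix-binding chains Itga5 and Itgav showed no call, and Itgav was the sole member with a negative difference on its brightest probe set. The sign of some other members is weak, as Itgam, Itgb1 and Itga4 stood at 0.00725, 0.00855 and 0.11 with quantile normalization. Itgav, the alpha chain of vitronectin receptors, had signals of 362, 385 and 588 in tumoricidal replicates 1 to 3, against 572 and 772 in control replicates 1 and 2, on its brightest probe set 1452784_at. Tumoricidal replicate 3 overlapped the lower control array. The log2 difference was -0.61 (95% interval -1.41 to 0.19, limma adjusted p = 0.758), with -0.62 within spike-in set A and -0.39 within set B. Of its 5 probe sets 4 were negative, and 1432679_at, with dim signals of at most 14.1, stood at 0.62. Among the negative ones 1432678_at and 1432296_a_at were dim as well, with at most 12.4 and 26.0. Itgb5, a beta chain partner of Itgav, had 127, 115 and 221 in tumoricidal and 382 and 428 in control replicates, a log2 difference of -1.45 (limma adjusted p = 0.364).

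Itga5, the fibronectin receptor chain, gave probe sets that disagreed. Its brightest, 1423267_s_at, had 126, 63.0 and 87.0 in tumoricidal replicates 1 to 3, against 51.9 and 69 in control replicates 1 and 2, with a log2 difference of 0.56 (limma adjusted p = 0.798). It was 0.78 within spike-in set A and 0.33 within set B. The other 3 probe sets were dimmer and negative, down to -1.17 for 1458996_at (limma unadjusted p = 0.0481, adjusted p = 0.618), whose groups did not overlap. The mean over all 4 gave -0.36, so that the direction for Itga5 depends on the probe set.

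**Figure D3:**
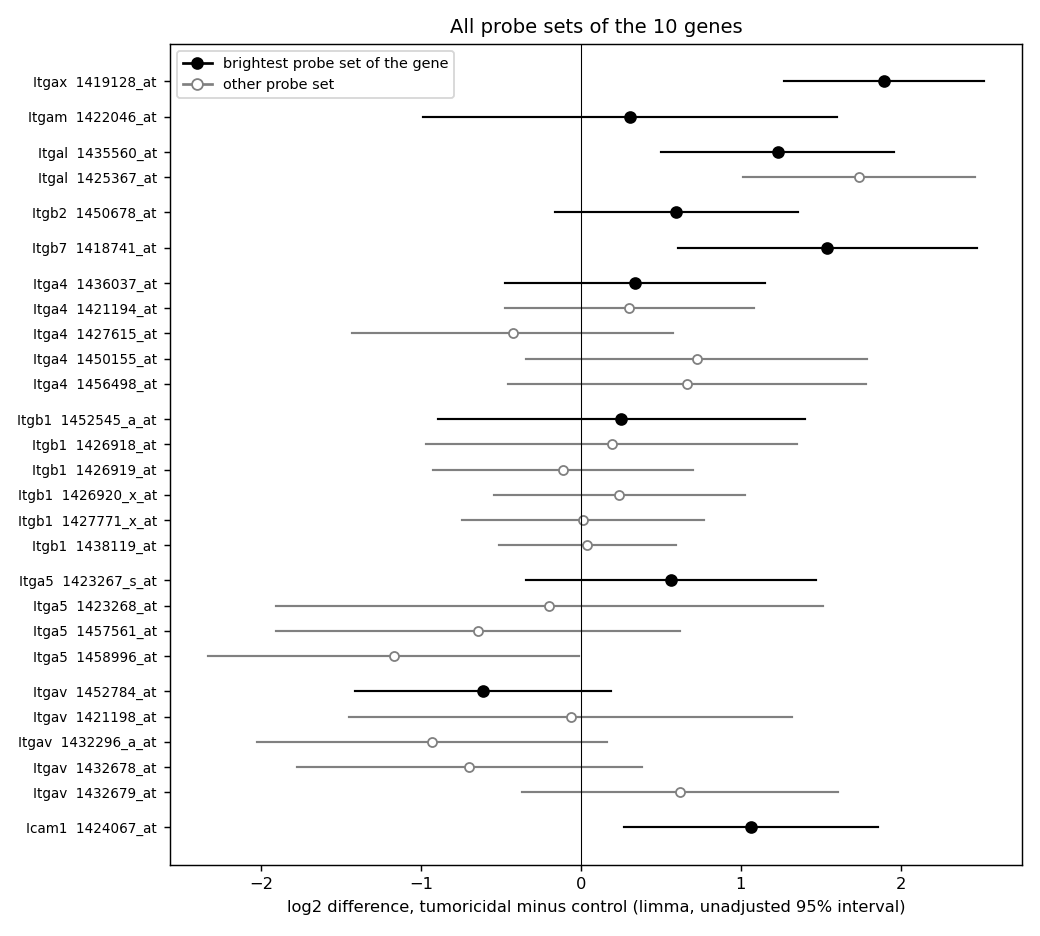
Log2 difference, tumoricidal minus control, of all 27 probe sets with unadjusted 95% intervals from limma; filled points are the brightest probe set of a gene. The intervals of Itgax, both Itgal probe sets, Itgb7 and Icam1 lie above 0, those of Itgb2, Itgam, Itgb1, Itga4 and Itgav include 0, and Itga5 has points on both sides.

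Counted together, 0 of 10 genes passed the adjusted limma test in either direction. At an unadjusted limma p under 0.05, 4 genes were higher (Itgax, Itgal, Itgb7 and Icam1) and 0 lower, beside 6.12% of named genes higher and 2.79% lower. Both counts depend on the processing. Itgav was lower at an unadjusted limma p of 0.0165 with the deposited scaling, 0.0111 with quantile normalization and 0.0447 with the pseudocount. With the pseudocount Itgb2 was higher as well, at an unadjusted limma p of 0.0413. With the replicate number as a block, Itgb7 and Icam1 stood at 0.0608 and 0.0932, and without tumoricidal replicate 1 Icam1 stood at 0.0557. Itgax and Itgal stayed under 0.05 in these settings. All tumoricidal arrays exceeded both control arrays in 5 genes (Itgax, Itgal, Itgb7, Icam1 and Itgb2), and the reverse held in 0, beside 17.0% and 6.51% of named genes. The median log2 difference of the 10 genes was 0.58, beside 0.13 over all named genes.

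The wider adhesion machinery was described through 3 lists. Of 17 other integrin chains 13 were measured; 0 passed the adjusted test, 2 were higher and 2 lower at an unadjusted limma p under 0.05, and groups were apart upwards in 2 and downwards in 2. Over all named genes 6.12% were higher and 2.79% lower at that threshold, and 17.0% were apart upwards and 6.51% downwards. The median log2 difference of the 13 chains was -0.09, beside 0.13 over all named genes. Those with the largest differences were Itgb5 and Itgae, given above, and Itga6, a laminin receptor chain. Itga6 had 32.4, 88.1 and 45.4 in tumoricidal and 136 and 128 in control replicates, a log2 difference of -1.38 (limma adjusted p = 0.525).

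Of 21 integrin ligands and counter-receptors 17 were measured. Spp1, Fgb, Fgg and C3 had no tested probe set with that symbol alone, so these ligands were not assessed. Of the 17, 0 passed the adjusted limma test, and 3 were higher and 1 lower at an unadjusted limma p under 0.05. Over all named genes 6.12% were higher and 2.79% lower at that threshold. Groups were apart upwards in 4 and downwards in 6 of the 17, beside 17.0% and 6.51% of named genes. The median log2 difference was -0.00704, beside 0.13 over all named genes. Vcam1, the ligand of Itga4 with Itgb1, had 461, 404 and 818 in tumoricidal and 91.0 and 200.8 in control replicates, without overlap and with a log2 difference of 1.98 (limma adjusted p = 0.359). Thbs1, thrombospondin of platelets and macrophages, had 104, 41.3 and 109 in tumoricidal and 232 and 391 in control replicates (log2 difference -1.96, limma adjusted p = 0.402). Thy1, a T-cell and fibroblast surface protein, had 79.9, 148 and 32.7 in tumoricidal and 26.6 and 14.3 in control replicates, with a log2 difference of 1.90 (limma adjusted p = 0.568).

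Of 30 genes of integrin activation and adhesion signalling 26 were measured. Of these, 0 passed the adjusted limma test, 4 were higher and 1 lower at an unadjusted p under 0.05, groups were apart upwards in 11 and downwards in 2, and the median log2 difference was 0.32. Over all named genes 6.12% were higher and 2.79% lower at that threshold, and 17.0% were apart upwards and 6.51% downwards. The kinase Src had 73.3, 95.6 and 80.4 in tumoricidal and 17.4 and 24.7 in control replicates, a log2 difference of 1.996 (limma adjusted p = 0.141). Zyx, zyxin of focal adhesions, had 1189, 963.5 and 974 in tumoricidal and 410.3 and 443 in control replicates (1.28, limma adjusted p = 0.232). Ptk2b, the kinase Pyk2, had 163, 117 and 153 in tumoricidal and 77.1 and 76.4 in control replicates (0.90, limma adjusted p = 0.450).

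**Figure D4:**
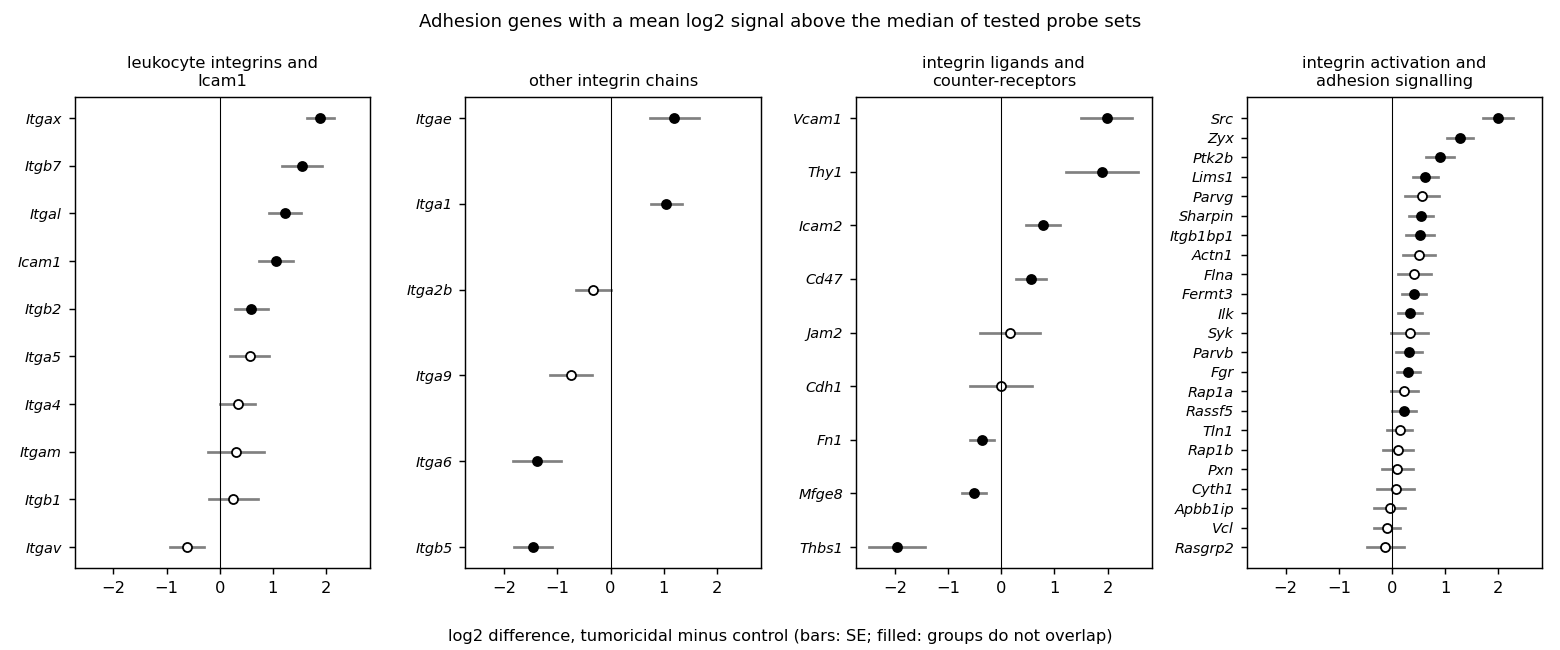
Log2 difference, tumoricidal minus control, with its SE for genes of the 4 adhesion lists whose mean log2 signal is above the median of tested probe sets; filled points have groups that do not overlap. Src at 1.996, Vcam1 at 1.98, Thy1 at 1.90 and Itgax at 1.89 lead upwards, and Thbs1 at -1.96 and Itgb5 at -1.45 lead downwards.

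The genes most like Itgax and Icam1 in their pattern over the 5 arrays were found by the root mean square difference between log2 values centred on each gene's mean, among 9930 other genes with a mean above the median. Closest to Itgax were H2-Oa (0.127), a class II chaperone chain, Xkr8 (0.129), a phospholipid scramblase, the formyl peptide receptor Fpr2 (0.161), the DNA repair gene Fanca (0.163) and Samhd1 (0.167), a dNTP hydrolase. H2-Oa had signals of 53.9, 41.2 and 55.5 in tumoricidal and 16.2 and 15.7 in control replicates. Closest to Icam1 were Clic4 (0.0613), a chloride intracellular channel protein, Erap1 (0.0619), the peptidase that trims class I peptides, Ccdc88b (0.0643), Usb1 (0.0837) and Ddx59 (0.0989). Erap1 had 305, 272 and 409 in tumoricidal and 135 and 169 in control replicates. Such likeness over 5 arrays is a description, and many genes that separate the groups by a like amount would score close.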

How the data were processed

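Per the labels' protocols, total RNA was extracted with Trizol and biotinylated cRNA was hybridised by the Affymetrix protocol. The authors deposited linear signal intensity per probe set for 5 arrays; the software, the summary of probes and the scaling were not given in the sources used here. The 2% trimmed mean was 100.0 on each array, while array medians, 15.4 to 22.6, differed. Arrays were scaled to their common median. After removal of 64 control probe sets, a floor was set at the 25th percentile of all scaled values (4.79) and log2 was taken. Probe sets at the floor throughout (3984) were left out, and 41053 were compared with limma 3.58.1 (lmFit and eBayes, two-sided, Benjamini-Hochberg over all) in R 4.3.3, with no covariate. The fit was tested on simulated data. Motifs and figures were made with Python 3.11.15 and matplotlib 3.10.9. Symbols are those of the platform annotation, checked by Entrez identifier against RefSeq (GRCm38.p6), which changed 0 of the members' symbols; 34945 probe sets have 1 symbol, 932 several and 9160 none.

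Members and lists were chosen with earlier results of these data known. All members were named; of each adhesion list the 3 with the largest absolute difference among those above the median; of each marker list, except fibroblast and endothelial, the first 2 where they have a value. Ly6g, Klrb1c and Ly6c2 are not analysed here. The 3 inflammatory monocyte markers summed to between 8355 and 9311 in tumoricidal and between 8781 and 8924 in control arrays, with Ccr2 at a log2 difference of 0.15. Fibroblast markers summed to between 1140.5 and 3997 against 1768 and 3063, with Col1a1 at -0.06, and endothelial markers to between 104 and 152 against 107 and 125.5, with Cdh5 at -0.19. Alternatives were the scaling, floor, filter, variance trend, blocks, probe set choice and arrays left out.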

Additional observations from a re-analysis of the deposited data

How the results depend on the processing

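With 17 alternatives per gene, the log2 differences of Itgax (1.66 to 2.12), Itgal (0.94 to 1.48), Itgb2 (0.24 to 0.83), Itgb7 (1.31 to 1.84), Icam1 (0.73 to 1.28) and Itgav (-0.89 to -0.34) kept their direction. Not all alternatives could change it. The floor at the 10th percentile, the filter settings and the variance trend left these differences as they were and moved only the p-values. The replicate block gave the same differences as leaving out tumoricidal replicate 3. Itgax passed limma's adjusted test with no floor and a pseudocount of 16 (1.81), with only probe sets above the median and with a variance trend (1.89 each). Itgal (1.15) and Itgb7 (1.42) passed with the pseudocount alone. Signs turned for Itgam without control replicate 1 (-0.27, between -0.27 and 0.88 over arrays left out), for Itgb1 without the same array (-0.33) and within spike-in set B (-0.00121), for Itga4 within set B (-0.19) and for Itga5 with the mean over its probe sets (-0.36); the cause was not tested. Itgax minus Itgam ran from 0.97 to 2.20 over arrays left out. The median over all probe sets was 0.09 as scaled here, -0.11 with the deposited scaling and 0.00160 with quantile normalization, while Itgax stood at 1.89 as scaled here and at 1.66 with each of the other 2. Probe sets called by limma numbered 14 higher and 7 lower, against 364 and 86 with the pseudocount, 194 and 28 above the median, 58 higher with the trend, and 41 lower with no filter. They numbered 0 and 0 with a floor at the 10th percentile (1808 and 1201 at an unadjusted p under 0.05), with the spike-in set as a block (2631 and 1486), with the replicate number as a block (1103 and 933) and without any single array, where 1654 to 3384 were higher and 1180 to 2181 lower unadjusted. Without 1 control array, the remaining control array is assumed to vary like the tumoricidal arrays. Arrays of replicate number 1 and of number 2 had correlations of deviations from their group means of 0.02 and -0.24. The deviations of the 2 control arrays mirror each other, so these correlations cannot settle whether replicates were paired. With the replicate number as a block Itgax stood at 1.80 (limma adjusted p = 0.908). Signal over background limits the dim probe sets, which lie near the floor.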
